A study of Homo sapiens with 6 samples.

Results

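The kinesin motor family was examined in U251 cells, an established human glioma line, with and without 6-shogaol, a pungent compound of dried ginger. Members were all genes whose deposited symbol is KIF followed by a number and at most a letter and a digit, or KIFC followed by a digit, which gave 42 of the 60612 genes in the tables. Of these, 37 had a mean raw count of at least 10 over the libraries and were read, 13 of 14 kinesins of cell division, all 17 kinesins of intracellular transport, and 7 of 11 with other or mixed roles. The study had 2 groups of 3 libraries of wild-type U251 cells in serum-containing medium. One group received no 6-shogaol, and the labels do not say whether it received a vehicle. The other received 6-shogaol for 24 h at a dose the labels write as 60 "μm", read here as micromolar. RNA was sequenced from the whole culture at this single time. Separate cultures are not named for the replicates, so p-values refer to the variation among 6 libraries, part or all of which may be technical.

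Kinesins are ATP-driven motors that walk along microtubules or take them apart from the ends. Mitotic kinesins separate the spindle poles, align and segregate chromosomes and build the central spindle where the cell divides, and their transcripts accumulate in G2 and M phase and are low in cells that do not divide. Transport kinesins carry vesicles, mitochondria and other cargo, mostly towards microtubule plus ends, through adaptor proteins, and many of them are abundant in neurons and glia whether or not the cell divides.

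With 6-shogaol, KIF20A and KIF2C, both mitotic kinesins, had significantly lower transcript levels (2 of 38 kinesins tested, where 1.71% of all genes were called lower). In the main edgeR test 0 kinesins were called higher, against 1.67% of all genes (2 at unadjusted p under 0.05, 1 in DESeq2 and 1 in limma, KIF15 in both). KIF20A fell by 51.9% and KIF2C fell by 22.7% in mean FPKM (the authors' level, scaled for transcript length and library depth). The other mitotic kinesins did not move as 1 group. KIF18A, KIF4A and KIFC1 had lower levels that did not pass in the main edgeR test (DESeq2 called KIF18A, adjusted p = 0.0163, and KIF4A, adjusted p = 0.0320). KIF11 and KIF18B overlapped between groups. KIF15 was higher in every treated library without passing in the main edgeR test. Among transport kinesins edgeR called 0 of 17 in either direction, where unadjusted p was under 0.05 for 1 higher and 3 lower genes, with 0 called in DESeq2 and 0 of 13 in limma on FPKM. Among the 8 tested kinesins of other roles it called 0, where unadjusted p was under 0.05 for 0 higher and 1 lower gene, with 0 called in DESeq2 and 0 of 3 in limma on FPKM.

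Genes were tested with edgeR's quasi-likelihood test on raw counts over 19279 genes, with Benjamini-Hochberg adjustment over all of them and a threshold of 0.05. Log2 fold changes are 6-shogaol against control. In that test 3.38% of all genes were called, 1.71% lower and 1.67% higher, against 2 of 38 kinesins tested, both lower. DESeq2 called 5.13% of its genes lower and 4.96% higher, with 4 kinesins lower and 1 higher. In limma on log2(FPKM + 1) it was 2.32% lower and 3.17% higher, with 2 kinesins lower and 1 higher. With the replicate number as a block 0.0156% of genes were called higher and 0.0% lower, and 0 kinesins. Libraries held 43516840 to 60018999 counts. The first principal component held 28.0% of the variance, and treated replicate 1 stood at -11.5 on it. Controls ranged from 29.4 to 44.8, and treated replicates 2 and 3 stood at -46.0 and -53.3. On the second, which held 20.6%, treated replicate 1 had a score of -61.8 while the remaining 5 ranged from -22.6 to 33.9. Counts of called members are therefore also given without that library. The culture carried its labelled identity in part: VIM, NES, SOX2 and CD44, markers of astrocytic and glioma cells, had mean control levels of 1126, 116, 105 and 20.1 FPKM. GFAP was at 2.03 FPKM, S100B at 0.360 FPKM, and OLIG2 near 0. GFAP shares 18.4% of its exon length with CCDC103 and FAM187A on the opposite strand. Their mean count reached 792, against 988 for GFAP, so part of its counts may not be its own. Of the 8 glial markers 3 fell in edgeR, GFAP (log2 fold change -1.62), FABP7 (-1.41) and NES (-0.42). Of the 6 fits that left out 1 library, GFAP was called in 6, NES in 1 and FABP7 in 0. In every treated library SOX2 was below and CD44 above all controls (-0.33 and 0.25). Neither passed (edgeR adjusted p = 0.0646 and 0.120), though DESeq2 called SOX2 lower (adjusted p = 0.0103). OLIG2 held 0, 0 and 2 counts in controls and 4, 8 and 14 with treatment. The summed level of the list, most of it VIM, was 1359 to 1386 FPKM in controls and 1148 to 1802 FPKM in treated libraries. Of the 6 neuron markers 0 were called by edgeR, with 0 at unadjusted p under 0.05. Their sum, most of it MAP2, was 8.85 to 14.2 FPKM in controls and 12.2 to 14.1 FPKM with treatment. The 4 immune markers summed to 5.28 to 6.20 FPKM in controls and 6.97 to 11.5 FPKM with treatment, most of it CD68. In edgeR 0 of them were called, with 1 at unadjusted p under 0.05, CD68 (log2 fold change 0.73), which was above all controls in every treated library and was called higher by DESeq2 (adjusted p = 0.0124) and by edgeR without 6-shogaol replicate 1 (adjusted p = 0.0185). CD68 shares 85.8% of its exon length with AC016876 genes on the same and the opposite strand. Their mean count reached 1072.5, against 954 for CD68, so its counts cannot be assigned to CD68 alone. PTPRC was near 0 and AIF1 at a count of 0. Of 4 endothelial markers CDH5 fell (-1.77), and the sum was under 1 FPKM in every library, as was that of the 4 epithelial markers, of which 0 were called. The part of these markers in the kinesin results was not tested. In bulk RNA, fewer cells in mitosis and less RNA per mitotic cell cannot be told apart.

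**Figure D1:**
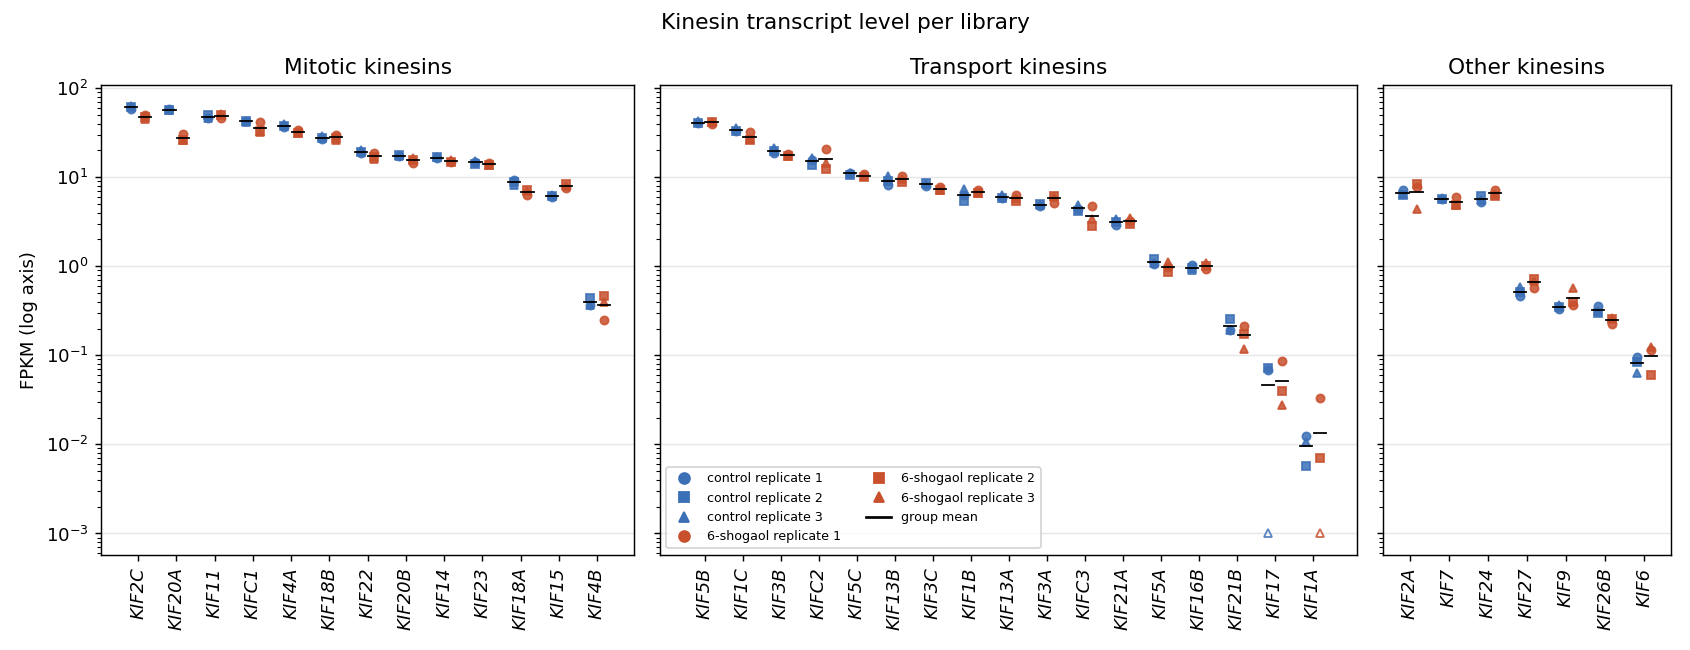
FPKM (log axis) of the 37 kinesins read, by role and in order of control level. Each point is 1 library (circle, square and triangle for replicates 1, 2 and 3), the short bars are group means, and open markers at the foot stand for a count of 0. Mitotic kinesins other than KIF4B lie between about KIF15 (6.14 FPKM in controls) and KIF2C (61.0 FPKM), and KIF20A shows the widest gap between groups among them.

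Mitotic kinesins were the more abundant ones per transcript length. Their median control level was 19.2 FPKM, against 5.97 FPKM for transport kinesins and 0.520 FPKM for the rest, and 10 of the 15 kinesins at 10 FPKM or more were mitotic. In controls KIF2C ranked first and KIF20A second, with ranges that did not overlap, followed by KIF11, KIFC1 and KIF5B, of which KIFC1 and KIF5B overlapped. With 6-shogaol KIF11 and KIF2C headed the order with overlapping ranges, and KIF20A stood eighth, overlapping KIF18B. Summed over the mitotic list, the level was 351, 359 and 359 FPKM in control replicates 1, 2 and 3 and 309, 292 and 288 FPKM in the treated replicates. Every treated library was below every control. KIF20A accounted for 49.6% of the difference in group means and KIF2C for 23.2%. The transport sum was 161, 161 and 174 FPKM in controls and 169, 149.8 and 156 FPKM with treatment, and the groups overlapped. The mitotic share of all kinesin FPKM was 65.8% ± 0.802 in controls and 62.4% ± 0.639 with 6-shogaol (mean ± SD, n = 3). The difference of -3.41 percentage points was -1.68 without KIF20A and -0.87 without KIF20A and KIF2C. Since these 2 genes were left out after their values were seen, the smaller differences are a description.

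Over the 13 mitotic kinesins read, the median log2 fold change was -0.18, and 11 had a negative value. Over the 17 transport kinesins the median was -0.01, with 9 negative. Over all genes with the same minimum count that were tested, the median was 0.00 and 50.042% were negative. Per library, the median difference of the mitotic list from the control mean of log2 CPM (counts scaled to library size by TMM) was -0.02, 0.02 and -0.00 in controls and -0.20, -0.15 and -0.13 with treatment. The transport list gave -0.03, -0.01 and 0.04 in controls and -0.03, -0.14 and -0.08 with treatment. Among the treated libraries, replicate 1 lay nearest to 0 for transport kinesins and farthest from it for mitotic ones. Without that library the medians were -0.14 for mitotic and -0.19 for transport kinesins, and the order of the lists was the opposite.

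**Figure D2:**
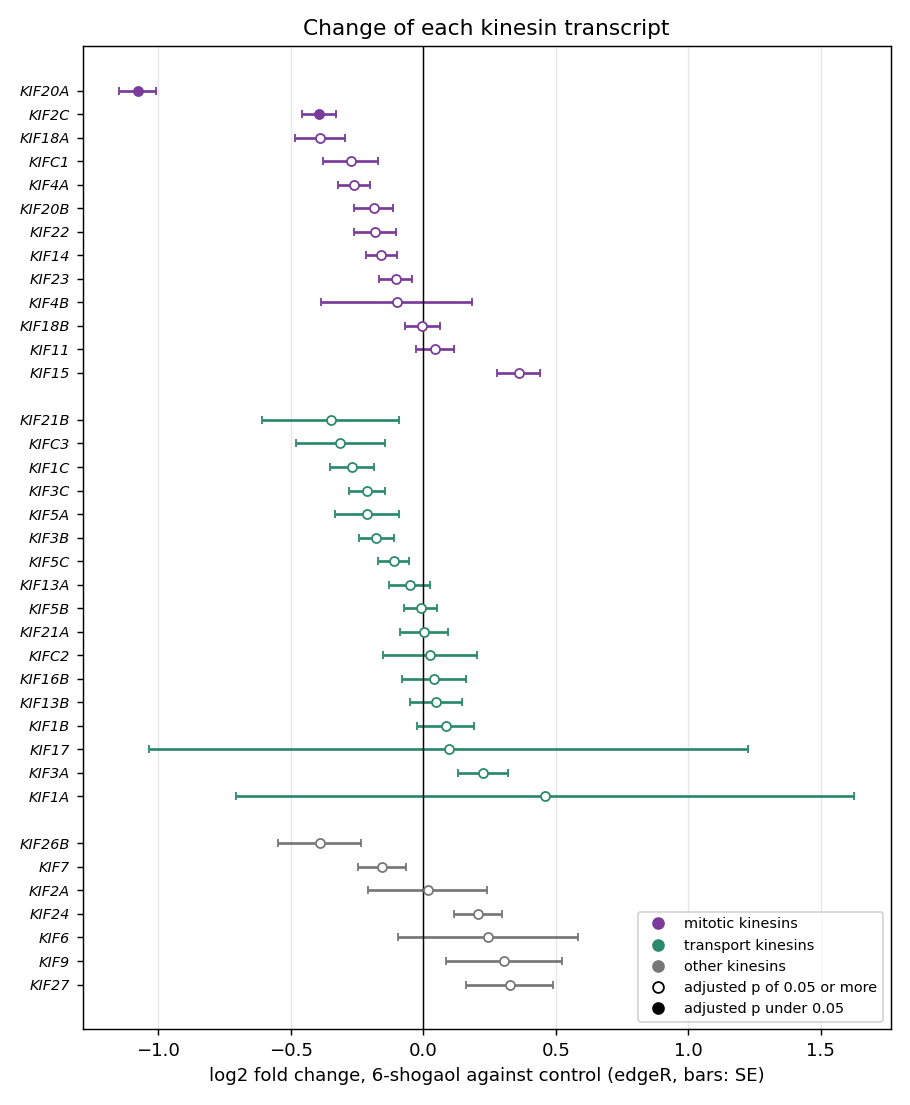
Log2 fold change of each kinesin read, 6-shogaol against control, by role (edgeR estimate, bars show the SE). Filled points passed an adjusted p of 0.05. KIF20A (-1.08) and KIF2C (-0.39) are the filled points, and KIF15 (0.36) lies at the other end of the mitotic list.

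KIF20A, also known as MKLP2, carries the chromosomal passenger complex to the central spindle for cytokinesis. It stood at 57.9, 57.3 and 56.8 FPKM in control replicates 1, 2 and 3 and at 30.4, 26.2 and 26.2 FPKM in the 6-shogaol replicates 1, 2 and 3. The treated values were all below the lowest control, with little spread in either group (57.3 ± 0.561 and 27.6 ± 2.40 FPKM, mean ± SD, n = 3). The change on the log2 scale was -1.08 with an SE of 0.07 (edgeR adjusted p = 0.00209), and the call held when any 1 library was left out (adjusted p from 0.00485 to 0.0226). In the deposited table the gene (ENSG00000112984) lies at chr5:138178719-138187723, plus strand. It shares 5.05% of its exon length with BRD8 and CDC23 on the opposite strand, whose mean count reached 6454, against 10585 for KIF20A. The sources do not give whether counting used the strand.

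KIF2C, or MCAK, depolymerises microtubules at centromeres and so helps to correct faulty kinetochore attachments. It stood at 58.9, 61.7 and 62.5 FPKM in control replicates 1, 2 and 3 and at 49.995, 47.0 and 44.5 FPKM in the 6-shogaol replicates 1, 2 and 3. All treated values were below all controls. The log2 fold change was -0.39 (SE 0.06, edgeR adjusted p = 0.0270). The call was lost without control replicate 1, 2 or 3 and without 6-shogaol replicate 2 or 3 (adjusted p up to 0.124), and held without 6-shogaol replicate 1 (adjusted p = 0.0251), while the value stayed between -0.42 and -0.35. The gene (ENSG00000142945) lies at chr1:44739818-44767767, plus strand. It shares 4.80% of its exon length with AL592166 on the opposite strand, at a mean count of 42.0.

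The remaining motors of cytokinesis did not pass the test. KIF23, or MKLP1, which forms centralspindlin with RACGAP1, stood at 14.8, 14.0 and 15.3 FPKM in control replicates 1, 2 and 3 and at 14.4, 13.7 and 13.6 FPKM in the 6-shogaol replicates 1, 2 and 3. The groups overlapped in FPKM, whereas in CPM all treated values were lower, and the change did not pass (log2 fold change -0.10, SE 0.06, edgeR adjusted p = 0.412). KIF20B, a relative of KIF20A that also acts in cytokinesis, had lower values in every treated library and did not pass (log2 fold change -0.19, SE 0.07, edgeR adjusted p = 0.210). KIF14, which works with citron kinase at the midbody, gave a like picture (log2 fold change -0.16, SE 0.06, edgeR adjusted p = 0.192). Both KIF20A and KIF23 are kinesin-6 motors of the central spindle, and their values with treatment were 27.6 and 13.9 FPKM against 57.3 and 14.7 FPKM in controls. The difference between their changes was not tested.

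Among motors that move chromosomes, edgeR called KIF2C alone. KIF18A, which dampens chromosome oscillations at the metaphase plate, stood at 9.28, 8.88 and 8.17 FPKM in control replicates 1, 2 and 3 and at 6.28, 7.09 and 7.01 FPKM in the 6-shogaol replicates 1, 2 and 3. All treated values lay below the controls. The SD among controls was 6.41% of the mean, against 0.979% for KIF20A. The change of KIF18A did not pass (log2 fold change -0.39, SE 0.09, edgeR adjusted p = 0.0746). KIF4A, a chromokinesin that also works with PRC1 on the central spindle, stood at 36.8, 37.4 and 39.6 FPKM in control replicates 1, 2 and 3 and at 34.0, 30.9 and 31.4 FPKM in the 6-shogaol replicates 1, 2 and 3. The groups did not overlap, and the change did not pass (log2 fold change -0.26, SE 0.06, edgeR adjusted p = 0.0686). Its near-identical intronless copy KIF4B was at 0.392 FPKM in controls, and the counts of KIF4A and KIF4B may be divided unreliably between them. KIF22, the chromokinesin Kid, had a value of -0.18 (SE 0.08, edgeR adjusted p = 0.251), and KIF18B, which controls the length of astral microtubules, of -0.00, with overlapping groups.

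The motors that set the distance between spindle poles had values of both signs, and the main edgeR test called none of them. KIF11, or Eg5, the motor that pushes poles apart, stood at 45.6, 49.5 and 45.9 FPKM in control replicates 1, 2 and 3 and at 46.7, 50.1 and 50.7 FPKM in the 6-shogaol replicates 1, 2 and 3. The groups overlapped and the change did not pass (log2 fold change 0.04, SE 0.07, edgeR adjusted p = 0.793). KIF15, which can keep a spindle bipolar when KIF11 is inhibited, stood at 6.01, 6.12 and 6.28 FPKM in control replicates 1, 2 and 3 and at 7.47, 8.46 and 8.05 FPKM in the 6-shogaol replicates 1, 2 and 3. All treated values were above all controls, with the lowest of them in replicate 1, and the change did not pass (log2 fold change 0.36, SE 0.08, edgeR adjusted p = 0.0647). DESeq2 called it higher (adjusted p = 0.0211), as did limma on log2(FPKM + 1) (adjusted p = 0.0443). With a filter of 1 CPM in 3 libraries, edgeR also called KIF15 higher. KIFC1, or HSET, a minus-end motor that pulls poles together and clusters extra centrosomes, stood at 42.3, 43.2 and 41.3 FPKM in control replicates 1, 2 and 3 and at 41.9, 32.9 and 31.8 FPKM in the 6-shogaol replicates 1, 2 and 3. Replicate 1 of the treated group lay within the control range and the other 2 well below it in FPKM (in CPM all 3 were below), and the change did not pass (log2 fold change -0.27, SE 0.10, edgeR adjusted p = 0.195). Without that library it passed (adjusted p = 0.0285). KIFC1 shares 12.7% of its exon length with the pseudogene RPL12P1 on the opposite strand, at a mean count of 28.8. KIF2B, a further depolymerase, had a count of 0 in every library, which allows up to 0.049984 to 0.0689 CPM (3 counts per library, counting error only).

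In CPM, 9 of the 13 mitotic kinesins had all treated libraries below all controls and 1, KIF15, above, where 13.9% of all tested genes were lower in this way and 14.0% higher. Among the 17 transport kinesins 4 were lower and 1 higher, and among the 8 tested others 1 was lower and 1 higher. Without 6-shogaol replicate 1, edgeR called KIF1C, KIF20A, KIF2C, KIF4A and KIFC1 lower and KIF15 higher, against KIF20A and KIF2C in the main edgeR test. In that fit 2.67% of all genes were called lower and 2.41% higher. That library was the highest of the treated libraries for 7 mitotic kinesins, KIF20A, KIF2C, KIF4A and KIFC1 among them, and the lowest for the other 6, which include KIF18A, KIF14 and KIF15. Its part in these results was not tested beyond leaving it out.

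**Figure D3:**
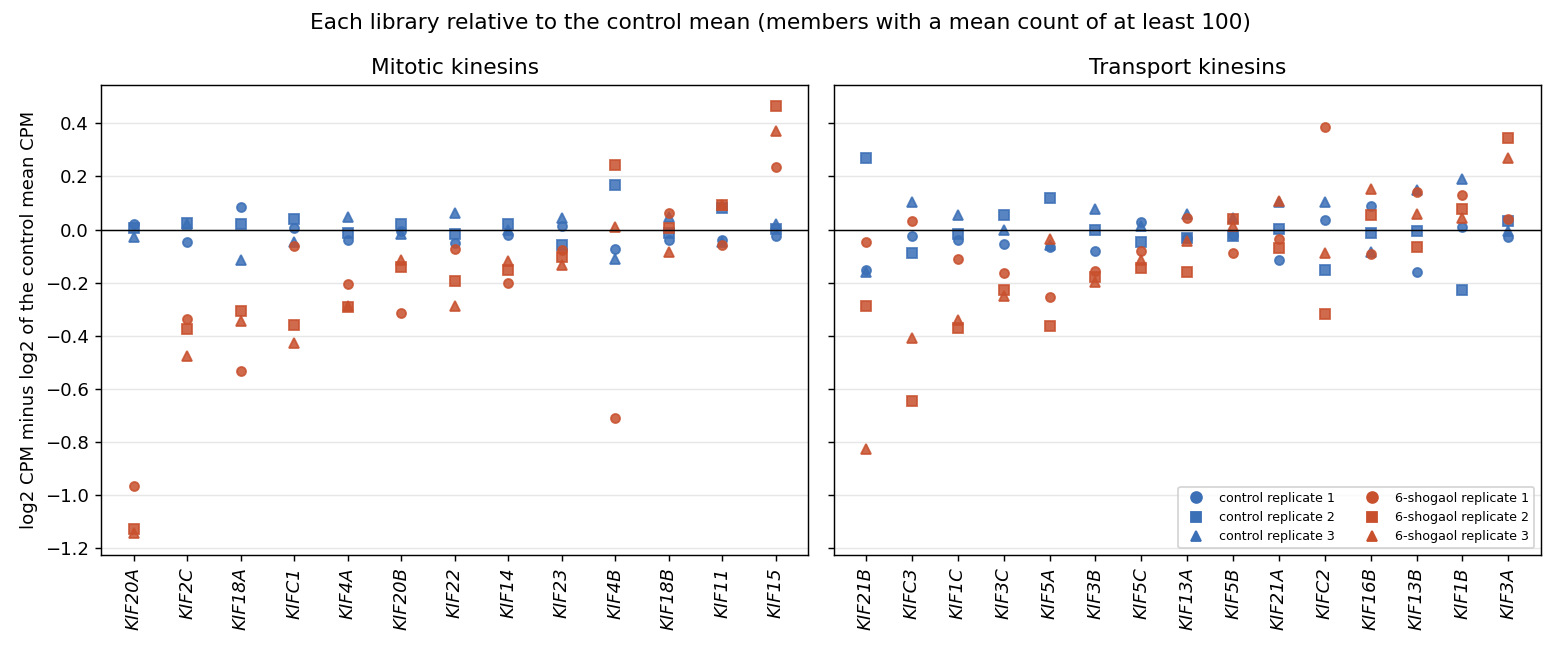
Log2 CPM of each library minus the log2 of the control mean, for mitotic (left) and transport kinesins (right) with a mean count of at least 100. Each point is 1 library (blue for control, red for 6-shogaol, with circle, square and triangle for replicates 1, 2 and 3). The treated points of KIF20A lie near -1, those of KIF11 and KIF18B overlap the controls, and for KIFC1, KIFC2 and KIFC3 the circle of 6-shogaol replicate 1 lies above the other treated points.

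Promoters were compared because mitotic genes are known to share a cell cycle homology region, called CHR (TTTGAA), often near CCAAT boxes, through which the DREAM and MuvB complexes silence or activate them with the cell cycle. RefSeq windows of 300 bases, with 250 before and 50 from the annotated start site (build GRCh38.p14), were found for 34 of the 42 kinesins by symbol, some with more than 1 window. A kinesin counts as holding a motif if any of its windows does, while shares of all promoters are per window. The 6 motifs were searched on both strands, TTTGAA (CHR), TTTAAA (a CHR-like variant), CCAAT, the CDE-CHR pair (GCGG, then NNNN, then TTTGAA), and the E2F-type sites TTTGGCGC and TTTCCCGC. Here the CHR match and the E2F-type match of KIF15 touch. The windows below, 100 bases from 90 before to 10 after the start, show the 2 called genes and 5 mitotic kinesins at other places in the order of changes, and were chosen after the values were seen. Capitals mark CHR, CHR-like, CCAAT and E2F-type matches, of which ATTGG is CCAAT and TTCAAA is CHR on the opposite strand.
KIF20A (chr5:138179022-138179121, plus strand): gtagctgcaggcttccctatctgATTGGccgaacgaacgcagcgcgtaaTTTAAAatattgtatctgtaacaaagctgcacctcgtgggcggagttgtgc
KIF2C (chr1:44739747-44739846, plus strand): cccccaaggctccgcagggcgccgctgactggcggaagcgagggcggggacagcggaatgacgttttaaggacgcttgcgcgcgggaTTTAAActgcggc
KIF18A (chr11:28108147-28108246, minus strand): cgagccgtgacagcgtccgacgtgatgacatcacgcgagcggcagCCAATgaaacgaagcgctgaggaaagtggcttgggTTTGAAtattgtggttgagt
KIF4A (chrX:70290014-70290113, plus strand): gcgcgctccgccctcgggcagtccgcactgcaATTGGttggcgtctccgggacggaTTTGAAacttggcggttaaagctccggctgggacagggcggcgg
KIF15 (chr3:44761704-44761803, plus strand): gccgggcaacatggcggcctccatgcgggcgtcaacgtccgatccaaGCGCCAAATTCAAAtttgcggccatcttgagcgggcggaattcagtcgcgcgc
KIF11 (chr10:92593040-92593139, plus strand): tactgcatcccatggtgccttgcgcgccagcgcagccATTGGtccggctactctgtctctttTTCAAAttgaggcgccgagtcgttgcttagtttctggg
KIF18B (chr17:44947764-44947863, minus strand): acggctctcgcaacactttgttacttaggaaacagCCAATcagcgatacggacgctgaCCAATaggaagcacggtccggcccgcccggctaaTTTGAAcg

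The CHR was found for 10 of 14 mitotic kinesins and 1 of 12 transport kinesins with a window, KIF5B, and in 15.2% of all 35116 windows. CCAAT was found for 11 of 14 mitotic and 4 of 12 transport kinesins and in 34.6% of all windows. Both together occurred for 9 mitotic kinesins and in 5.90% of all windows. The called genes KIF20A and KIF2C held no TTTGAA but the variant TTTAAA, which occurred for 4 of 14 mitotic kinesins, the others being KIF14 and KIF23, and in 12.2% of all windows. KIF11 and KIF18B, which overlapped between groups, held both TTTGAA and CCAAT, as did KIF18A and KIF4A. KIF15, like KIF2C and KIF2B, had no CCAAT. It was the 1 mitotic kinesin with an E2F-type site, TTTGGCGC, which was in 0.652% of all windows. TTTCCCGC was found for 0 mitotic and 0 transport kinesins and in 1.63% of all windows, and the CDE with CHR for 0 kinesins and in 0.105% of all windows. These matches describe letters in these windows and not binding.

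**Figure D4:**
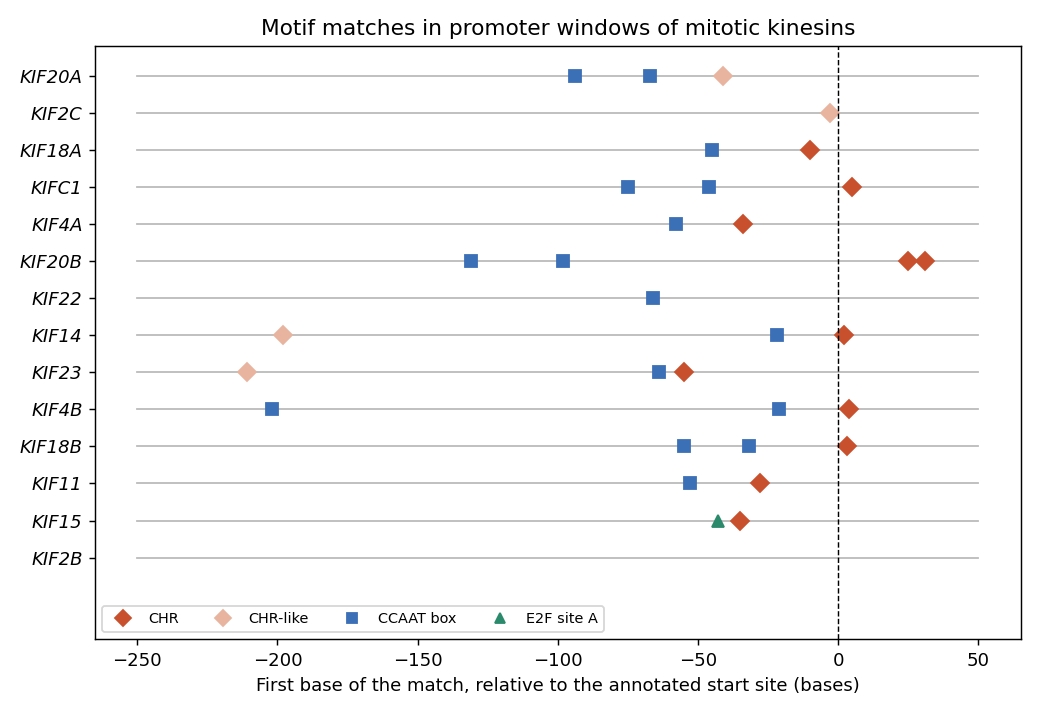
Position of motif matches relative to the annotated start site (bases, dashed line at the start) in the promoter windows of mitotic kinesins, ordered from the lowest to the highest log2 fold change, with KIF2B, which had no counts, last. Diamonds are CHR and CHR-like matches, squares CCAAT and the triangle the E2F-type site. KIF20A and KIF2C at the top carry a CHR-like diamond, and KIF15 near the foot carries the triangle.

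Among transport kinesins, the kinesin-1 heavy chains move mitochondria, vesicles and RNA granules. KIF5B, the heavy chain found in most tissues, stood at 40.3, 40.1 and 42.7 FPKM in control replicates 1, 2 and 3 and at 39.9, 42.1 and 41.9 FPKM in the 6-shogaol replicates 1, 2 and 3. The groups overlapped (log2 fold change -0.01, SE 0.06, edgeR adjusted p = 0.952). KIF5C, a neuronal form, was the next of the 3 in level, at 11.011 ± 0.343 FPKM in controls and 10.3 ± 0.411 FPKM with treatment, and KIF5A, also neuronal, was at 1.12 ± 0.0768 and 0.985 ± 0.121 FPKM (mean ± SD, n = 3), and neither passed. The 3 heavy chains are related in sequence, so a small share of reads could be placed on the wrong one.

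Of kinesin-2, which drives intraflagellar transport in cilia, the partner subunits had values of opposite sign. KIF3A stood at 4.77, 4.96 and 4.90 FPKM in control replicates 1, 2 and 3 and at 5.19, 6.19 and 5.95 FPKM in the 6-shogaol replicates 1, 2 and 3, each treated value above each control (log2 fold change 0.22, SE 0.09, edgeR adjusted p = 0.241). KIF3B had 18.6, 19.6 and 21.0 FPKM in controls and 18.3, 17.4 and 17.4 FPKM with treatment, each treated value below each control (log2 fold change -0.18, SE 0.07, edgeR adjusted p = 0.188). KIF3C, which pairs with KIF3A in neurons, was also below the controls in every treated library (log2 fold change -0.21, SE 0.07, edgeR adjusted p = 0.141). None of the 3 passed.

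Of kinesin-3, which carries synaptic vesicle precursors, endosomes and dense core vesicles, KIF1C was the most abundant. KIF1C, a motor of secretory vesicles and integrin-bearing endosomes, stood at 32.7, 33.2 and 35.4 FPKM in control replicates 1, 2 and 3 and at 32.3, 26.1 and 27.0 FPKM in the 6-shogaol replicates 1, 2 and 3. All treated values were below the controls, with replicate 1 close to them, and the change did not pass (log2 fold change -0.27, SE 0.08, edgeR adjusted p = 0.131) except without that library (adjusted p = 0.0297). KIF1B, KIF13A, KIF13B and KIF16B, motors of mitochondria, vesicles and endosomes, overlapped between groups with log2 fold changes from -0.05 to 0.08. KIF1A, a neuronal motor, held 14, 8 and 14 counts in controls and 40, 8 and 0 with treatment, with a fitted value of 0.46 (SE 1.17) that did not pass. KIF17, a kinesin-2 of neuronal dendrites, was as low, with 19, 24 and 0 and 25, 11 and 7 counts. These 2 lay just inside the minimum, and KIF12, with a mean count of 9.83 and counts of 11, 1 and 0 and 6, 13 and 28, just outside it.

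The minus-end motors KIFC2 and KIFC3 and the kinesin-4 motors KIF21A and KIF21B, which also restrain microtubule growth, did not pass. KIFC2 stood at 15.6, 13.7 and 16.6 FPKM in control replicates 1, 2 and 3 and at 20.7, 12.2 and 14.5 FPKM in the 6-shogaol replicates 1, 2 and 3, where replicate 1 was the highest of all 6 and replicate 2 the lowest. KIFC3 stood at 4.36, 4.18 and 4.85 FPKM in control replicates 1, 2 and 3 and at 4.71, 2.84 and 3.40 FPKM in the 6-shogaol replicates 1, 2 and 3, again with treated replicate 1 among the controls and the other 2 below (log2 fold change -0.31, SE 0.17, edgeR adjusted p = 0.356). KIF21B had the largest negative value among transport kinesins, at 0.191, 0.255 and 0.191 FPKM in controls and 0.212, 0.174 and 0.119 FPKM with treatment, with overlap (log2 fold change -0.35, SE 0.26, edgeR adjusted p = 0.508). FOXH1 on the opposite strand, at a mean count of 26.5, shares 17.8% of the KIFC2 exon length.

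Among the kinesins with other roles, KIF2A, a depolymerase of both spindles and growing neurites, stood at 7.25, 6.28 and 6.43 FPKM in control replicates 1, 2 and 3 and at 7.70, 8.39 and 4.39 FPKM in the 6-shogaol replicates 1, 2 and 3. The treated libraries spread on both sides of the controls, with replicate 2 the highest and replicate 3 the lowest of the 6 (log2 fold change 0.02, SE 0.22, edgeR adjusted p = 0.978). IPO11 on the same strand, at a mean count of 1966, shares 8.97% of the KIF2A exon length. KIF24, which holds back the mother centriole from forming a cilium, stood at 5.31, 6.15 and 5.49 FPKM in control replicates 1, 2 and 3 and at 7.22, 6.21 and 6.45 FPKM in the 6-shogaol replicates 1, 2 and 3, all treated values being above all controls without passing (log2 fold change 0.21, SE 0.09, edgeR adjusted p = 0.253). KIF7, a ciliary regulator of Hedgehog signalling, had a value of -0.15. TICRR, at a mean count of 2580, overlaps 11.8% of the KIF7 exon length. KIF27, a relative of KIF7, had a value of 0.33 (FPKM 0.466, 0.510 and 0.586 in controls and 0.577, 0.720 and 0.691 with treatment, overlapping). KIF26B, an atypical kinesin linked to Wnt5a signalling, had the lowest log2 fold change of this list, with 0.359, 0.295 and 0.311 FPKM in controls and 0.227, 0.255 and 0.265 FPKM with treatment. The groups did not overlap, and it did not pass (log2 fold change -0.39, SE 0.16, edgeR adjusted p = 0.219). KIF6 and KIF9, linked to motile cilia, were below 1 FPKM in every library and overlapped between groups. KIF19, KIF25 and KIF26A had a count of 0 in every library.

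Genes that work with kinesins were taken from lists chosen for their role. Of 16 partners and regulators of mitotic kinesins 4 fell and 0 rose in edgeR (0 higher at unadjusted p under 0.05, 0 in DESeq2 and 0 in limma), with a list median of -0.23, where 1.71% of all genes were called lower and 1.67% higher. The 4 were AURKA (-0.66), the spindle pole kinase, PLK1 (-0.57), the kinase that binds KIF20A and KIF23 at the central spindle, CDCA8 (-0.33), a subunit of the passenger complex that KIF20A carries, and TPX2 (-0.29), which recruits AURKA and KIF15 to spindle microtubules. Of the other passenger complex genes, BIRC5 had a value of -0.41, INCENP of -0.26 and AURKB of 0.07. In edgeR none of these passed, while DESeq2 called BIRC5 (adjusted p = 0.0128) and INCENP (adjusted p = 0.0350) lower. CENPE, the kinesin-7 of kinetochores that the symbol rule leaves out, had -0.32 and did not pass (edgeR adjusted p = 0.0863), except in DESeq2 (adjusted p = 0.0247). PRC1, the KIF4A partner (-0.19), and RACGAP1, the KIF23 partner (-0.19), passed in neither tool. PRC1 shares 58.4% of its exon length with AC068831 on the same strand and PRC1-AS1 on the opposite strand. Leaving out control replicate 3 left 2 called partners, and leaving out control replicate 1 or 2 or treated replicate 2 or 3 left 1.

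Of 20 cargo adaptors and light chains 1 rose, SPAG9 (0.41), a JNK scaffold that links kinesin-1 to vesicles, and 0 fell in edgeR (3 lower at unadjusted p under 0.05, 0 in DESeq2 and 0 in limma). Of all genes 1.67% were called higher. The list median was -0.08, and SPAG9 was called in the fit without 6-shogaol replicate 1 and in no other fit that left out 1 library. MAPK8IP2 and KLC3, the adaptors with the largest changes, were below 1 FPKM and did not pass (-1.20 and -1.11). KIFAP3, the KIF3 adaptor, had -0.28 and did not pass. Of 25 genes of cytoplasmic dynein and dynactin, the minus-end counterpart of the transport kinesins, 3 fell, the light chains DYNLL1 (-0.42) and DYNLL2 (-0.32) and the intermediate chain DYNC1I1 (-0.44), and 0 rose in edgeR (1 higher at unadjusted p under 0.05, 0 in DESeq2 and 0 in limma). No dynein gene was called without control replicate 1, 2 or 3 or without 6-shogaol replicate 2 or 3, and 5 were called lower without 6-shogaol replicate 1, where 2.67% of all genes were called lower, against 1.71% with all libraries. DYNLRB2, with a mean count of 13.8, had the largest value of that list (-2.31, SE 1.24).

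Of 17 transcription regulators of cell cycle genes, 4 rose and 0 fell in edgeR (1 lower at unadjusted p under 0.05, 1 in DESeq2 and 0 in limma), with a list median of 0.26, where 1.67% of all genes were called higher and 1.71% lower. The gene DESeq2 called lower was E2F5 (-0.49, adjusted p = 0.0407), which shares 16.3% of its exon length with RBIS on the opposite strand. E2F7 (0.78) and E2F8 (0.75) are repressors of E2F targets, E2F1 (0.68) activates genes of S-phase entry, and RBL1 (0.52) encodes the p107 pocket protein that can join the DREAM complex. CDKN1A, encoding the CDK inhibitor p21, had the largest value, 0.91, and did not pass (edgeR adjusted p = 0.0689), with every treated value above every control. It was the fifth regulator that DESeq2 called higher (adjusted p = 0.000127), besides these 4, and edgeR called it without control replicate 3 (adjusted p = 0.0277). FOXM1 and MYBL2, activators of genes expressed in G2 and M phase, had values of 0.04 and 0.26 and did not pass. Without control replicate 2 the called regulators numbered 1.

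**Figure D5:**
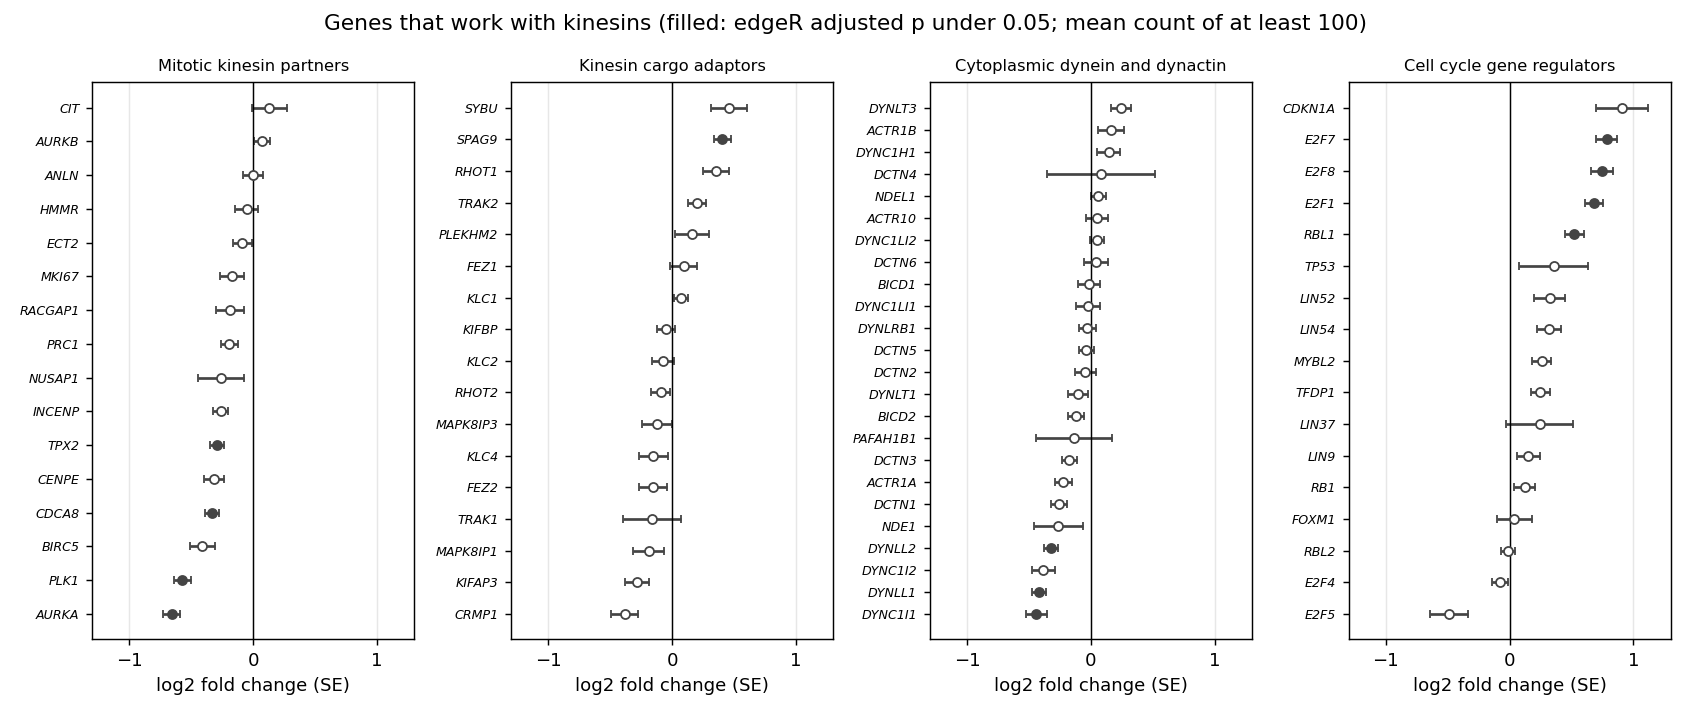
Log2 fold change (edgeR, bars show the SE) of genes that work with kinesins, by list, for members with a mean count of at least 100, filled where the adjusted p was under 0.05. AURKA (-0.66) and PLK1 (-0.57) are the lowest of the mitotic partners, and E2F7, E2F8, E2F1 and RBL1 are the filled points among the regulators.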

How the data were processed

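RNA-seq of 6 libraries was deposited by the authors as raw counts per gene, and as FPKM values per the file headers, in which 0.0001 stands for a count of 0. Which tool counted reads, and with what strand setting, is not given in the sources used here. The builds GRCm38 and mm10, both of mouse, are named per the submitters' processing notes, but all 60612 identifiers are human. Coordinates are as deposited, and each of the 42 kinesins overlaps the gene of that identifier in GENCODE 29 on GRCh38. Sample titles gave the group and number of each library. No library was a copy of another, since chi-square over its degrees of freedom within groups was 32.8 to 69.1.

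Counts were filtered with filterByExpr, scaled by TMM and tested in R 4.3.3 with edgeR 4.0.16. An SE is the size of the fitted change over the root of its F statistic. On counts simulated for this comparison over 18632 genes, edgeR recovered 22% of 1.5-fold, 54% of 2-fold and 72% of 3-fold changes, with 8.33% false calls. DESeq2 1.42.0, an alternative, made 28.4% false calls there. The other alternatives were limma 3.58.1 on log2(FPKM + 1), keeping genes that reached 1 FPKM in 3 libraries, the same unfiltered or with a pseudocount of 0.1, and other scalings and filters, the replicate block and each library left out. Exon overlap was taken from GENCODE 29, for neighbours whose mean count was 10 or more. Genes named with values were those called, and in each role the 2 with the largest change and the 2 with the highest FPKM, and in each companion list those called and the 2 with the largest change; further genes were described after their values were seen. The members, lists and motifs were chosen with earlier results of these data known.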

Additional observations from a re-analysis of the deposited data

How the results depend on the processing

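The direction of KIF20A and KIF2C was the same under all 15 alternatives, and KIF20A was called in 14 and KIF2C in 8 of them. With RLE or upper-quartile scaling or no filter the called kinesins were KIF20A and KIF2C. DESeq2 called 1 kinesin higher, KIF15, and 4 lower, KIF18A and KIF4A being added, and KIF15 was also called with the filter of 1 CPM (1 higher), in limma on log2(FPKM + 1) (1) and in limma with no filter (1). With log2(FPKM + 0.1) limma called 1 lower, KIF20A. For all genes DESeq2 called 764 higher and 790 lower, no filter 183 and 195, against 322 and 329. In DESeq2 the mitotic partners called lower numbered 7 and the regulators 1. With no filter, 2 partners and 1 dynein gene were called lower, and in limma on log2(FPKM + 0.1) 2 partners. The cause of these shifts was not tested.

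Leaving out 1 library gave 44 to 480 higher and 54 to 532 lower genes, 0 to 1 higher and 1 to 5 lower kinesins (0 to 1 and 1 to 4 mitotic, 0 to 1 transport lower), 1 to 4 lower partners, 0 to 1 higher adaptors, 0 to 5 lower dynein genes and 1 to 4 higher regulators. The median was -0.21 to -0.14 for mitotic and -0.19 to -0.0019 for transport kinesins, the lowest transport value being that without 6-shogaol replicate 1, and limma with no filter gave a positive transport median of 0.0054. The mitotic share of kinesin FPKM differed by -3.84 to -3.05 percentage points, and by -1.68 without KIF20A and -0.87 without KIF20A and KIF2C, alternatives added after the data were seen.

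Deviations of same-numbered libraries from their group means correlated at -0.03, 0.06 and -0.04 for replicates 1, 2 and 3. Those of differently numbered libraries correlated at -0.06 to 0.09. The same numbers thus showed no strong common deviation over all genes. These values cannot show whether same-numbered libraries were handled together. With the replicate number as a block 3 genes were called higher and 0 lower, and 0 kinesins, 0 mitotic kinesins, 0 partners, 0 adaptors, 0 dynein genes and 0 regulators were called in either direction, with KIF20A at -1.08 (adjusted p = 0.0541). In the simulated counts, over genes of many levels and spreads, edgeR recovered 22% of 1.5-fold and 54% of 2-fold changes. Changes of this size can therefore be missed. Recovery at the level and spread of the kinesins was not simulated apart.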

Other observations

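Of the genes with kinesin-derived symbols outside the rule, KIF9-AS1, which lies antisense to KIF9, had 209, 298 and 314 counts in control replicates 1, 2 and 3 and 375, 353 and 204 counts with 6-shogaol, more than KIF9 itself at a mean of 148 counts. Since KIF9 shares 17.9% of its exon length with KIF9-AS1 and KLHL18 on the opposite strand, its low level cannot be assigned to 1 strand. The pseudogene KIF28P had 16, 11 and 27 counts in controls and 20, 11 and 19 with treatment, while KIF4CP, also a pseudogene, had 0 in every library.

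All 42 kinesins carry the term microtubule motor activity in the deposited annotation. Terms with the words mitotic, spindle or cytokinesis were given to 14 of 14 mitotic kinesins, to 5 of 17 transport kinesins (KIF13A, KIF1B, KIF3A, KIF3B and KIFC2) and to 2 of the 11 others (KIF25 and KIF2A), so the role lists used here are not the only way to divide the family. KIF25 had no counts, and of the other 6 genes 0 were called in edgeR (1 higher, KIF3A, and 1 lower, KIF3B, at unadjusted p under 0.05, with 0 in DESeq2 and 0 in limma).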
